A study of Mus musculus with 18 samples.

Results

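The genes described are the cytochrome P450 genes, taken as all probes whose gene symbol begins with Cyp, digits and a letter. The array carried 124 such probes for 81 symbols, of 45281 probes for 30869 symbols in all. Of the 81, 31 were tested, because at least 1 of their probes had a detection p-value (the share of negative control probes of an array that were brighter) under 0.05 on at least 4 of 18 arrays. Messenger RNA came from colon epithelial cells of C57BL/6 mice, purified by flow cytometry for the epithelial surface protein EpCAM and against CD45, CD3 and a macrophage surface protein, and was read on Illumina MouseWG-6 BeadChips. DSS_WT and DSS_KO mice drank water with 2% dextran sulphate sodium (DSS) for 6 days, which damages the colonic epithelium and sets off colitis, and Naive_WT and Naive_KO mice received none. KO mice lacked Mbd2, a protein that binds methylated CpG sites in DNA and recruits repressors of transcription. For epithelial cells from mice given DSS, the study describes loss in the whole body, so that other cell types lacked Mbd2 too. The sample titles do not say whether the loss in Naive_KO mice was in the whole body or in the epithelium alone. Mice were 8 to 22 weeks old, and a sample may hold the pooled cells of several mice. Each group had 4 samples. The genotype was taken from the labels and could not be checked here, because the only Mbd2 probe was detected on 0 of 18 arrays, with log2 signals of 4.31 to 4.68 in WT and 4.34 to 4.56 in KO samples.

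Cytochrome P450 enzymes are haem proteins that insert an oxygen atom into their substrate, using electrons handed over by P450 oxidoreductase in the endoplasmic reticulum or by adrenodoxin in mitochondria. Families 1 to 3 mainly oxidise drugs, dietary compounds and other foreign molecules, and several members of families 2 and 4 also turn arachidonic acid and leukotrienes into signalling or inactive products. The remaining families have narrow substrates among sterols, bile acids, steroid hormones, retinoic acid and vitamin D. In the gut, P450 enzymes of the absorptive epithelium meet ingested compounds before the liver does.

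Detection is given by functional group. In all, 18 of the 81 genes were detected on all 18 arrays, 44 on none and 6 on 1 to 3 arrays. Family 2, the largest, had 15 of 40 genes tested and 22 detected on no array. Family 4, mostly fatty acid and leukotriene hydroxylases, had 7 of 13 tested and 5 detected on no array. Cyp3a had 2 of 6 tested. Among genes of bile acid and sterol breakdown 3 of 6 were tested (Cyp27a1, Cyp39a1 and Cyp7b1), among those of steroid hormone synthesis 2 of 7 (Cyp11a1 and Cyp11b2), and of 3 genes of vitamin D metabolism only Cyp24a1, which degrades the active hormone. Cyp24a1 was detected on 5 of 18 arrays, with group means of 4.70 to 4.96 on the log2 scale.

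Several P450 genes known as inducible markers stayed at background. Cyp1a1, the classic target of the aryl hydrocarbon receptor, was detected on 0 of 18 arrays, with a lowest detection p of 0.11. Cyp1b1, of the same family, was detected on 3 arrays. Cyp26b1, which breaks down retinoic acid, had a lowest detection p of 0.0908 and was detected on 0 arrays. Cyp27b1, which makes active vitamin D, was also detected on 0 arrays (lowest p 0.131), as were both probes of Cyp2b10, a target of the nuclear receptor CAR (lowest p 0.0716). A signal at background on these arrays gives only an upper bound for the transcript, and none of these genes was tested.

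**Figure D1:**
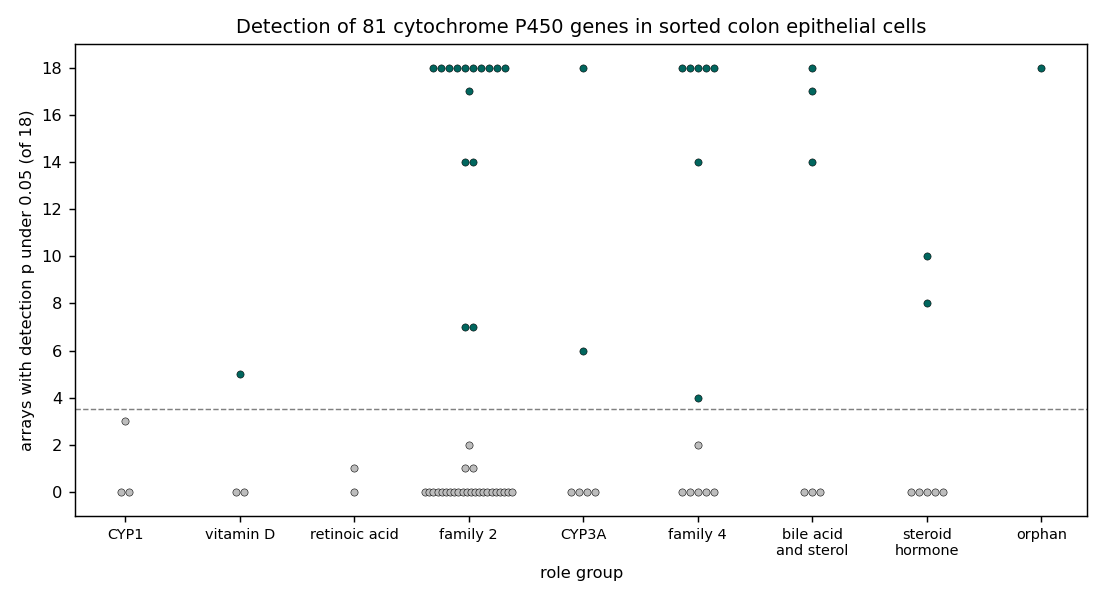
Number of arrays (vertical axis, of 18) on which each of the 81 cytochrome P450 genes was detected, 1 point per gene, by functional group (horizontal axis). Green points are the 31 genes detected on at least 4 arrays (above the dashed line) and grey points the other 50. In family 2, 10 genes lie at 18 arrays and 22 at 0.

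Before the comparisons, the samples themselves were compared. The arrays detected 18851 to 20618 probes each, and 34 to 44 of the 124 P450 probes. A P450 signal averaged a median of 36 to 42 beads per array, and 17 at the fewest. The sample DSS_WT replicate 4, the mean of the arrays named 4 and 4R, was the lowest of the 4 DSS_WT samples for 23 of the 31 tested genes. Counts without it are given for both contrasts of DSS_WT, and values without it for only some of the genes.

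The epithelial marker genes were detected throughout, and markers of other cell types differed between groups. All 14 epithelial markers (Epcam, Cdh1, Vil1 and others) were detected on every array, and their normalised intensities summed, with DSS, to 136347 to 151915 in WT and 142122 to 158098 in KO and, without it, to 142379 to 159890 in WT and 149502 to 166131 in KO. Of 10 smooth muscle markers 9 were tested, and their sum was 10199 to 14546 in DSS_WT against 4513 to 8194 in DSS_KO, and 8273 to 14190 in Naive_WT against 7097 to 9406 in Naive_KO. Every DSS_KO sum thus lay below every DSS_WT sum. The 12 fibroblast and matrix markers summed to 8334 to 10979, 5780 to 7355, 4060 to 7683 and 3949 to 5282 in the same order. The 10 endothelial markers summed to 1418 to 2112, 822 to 1211, 1159 to 1711 and 873 to 1069. Both lists were again lower in every DSS_KO than in any DSS_WT sample, and endothelial sums were also lower in every Naive_KO than in any Naive_WT sample. The 9 tested of 13 myeloid markers summed to 2190 to 5130, 3779 to 6559, 1317 to 1783 and 1566 to 3002, with Itgam and Cxcr2 detected on no array. The 5 tested of 11 lymphoid markers summed to only 164 to 178, 151 to 186, 120 to 134 and 125 to 173, with Cd8a and Ms4a1 detected on no array.

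**Figure D2:**
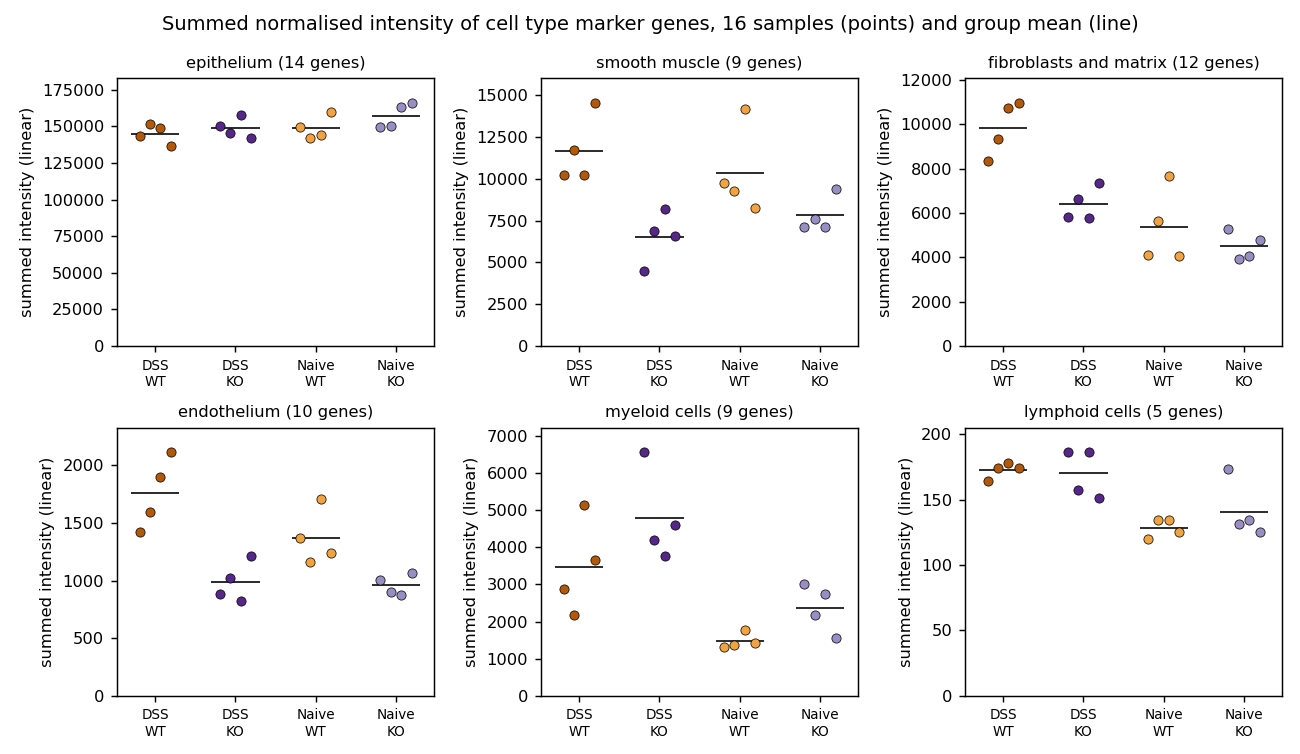
Summed normalised intensity (vertical axes, linear scale from 0) of 6 lists of cell type marker genes in the 16 samples, by group, with lines at the group means. Epithelial sums lie between 136347 and 166131 in all samples, whereas smooth muscle, fibroblast and endothelial sums of the 4 DSS_KO samples all lie below those of the 4 DSS_WT samples.

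Levels are given as log2 of the normalised signal and their spread as the SD over 4 samples of a group. A brighter probe need not mean a more abundant transcript, since probes differ in how well they bind, so levels are compared only within a gene. Cyp2c55, an arachidonic acid hydroxylase of the gut, gave a mean log2 signal, with DSS, of 13.41 ± 0.63 (SD, n = 4) in WT and 12.72 ± 0.39 in KO and, without it, of 13.56 ± 0.35 in WT and 13.37 ± 0.65 in KO. Its largest difference, -0.68 between DSS_KO and DSS_WT (95% confidence interval -1.36 to -0.0056), had a limma adjusted p of 0.221. Cyp2s1, a P450 of epithelia that line body surfaces, read 10.11 (DSS_WT), 9.97 (DSS_KO), 10.71 (Naive_WT) and 10.43 (Naive_KO). With DSS it differed from naive by -0.60 in WT (adjusted p 0.0529) and -0.46 in KO (adjusted p 0.14). Cyp3a13, a Cyp3a gene of the intestine, lay between 9.64 and 9.84 in all 4 groups, with intervals for the 4 contrasts that spanned -0.70 at the lowest and 0.73 at the highest.

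Cyp2c65, another gut enzyme of arachidonic acid metabolism, was read by 4 tested probes, which agreed in direction between genotypes, although only 1 of them had an adjusted p under 0.05, and without DSS only. Its brightest probe read 11.53, 11.85, 10.95 and 11.59 in the same order, and Naive_KO lay 0.64 above Naive_WT (adjusted p 0.18). A dimmer probe, which shares 37 bases with another of the 4, gave 1.03 for the same difference with an adjusted p of 0.0451. Cyp4f13 read 9.70, 9.60, 10.13 and 10.04, and Cyp4f14, which inactivates leukotriene B4, 9.63, 10.07, 9.81 and 10.65. Neither had an adjusted p under 0.05 in any contrast, although Cyp4f14 was 0.84 higher in Naive_KO than in Naive_WT (interval 0.13 to 1.56, adjusted p 0.149). Cyp4f16 lay between 8.84 and 9.13 in all groups by its brightest probe. Cyp27a1, the mitochondrial sterol hydroxylase that opens the acidic route of bile acid synthesis, read 8.71, 8.01, 8.54 and 8.12, and its 3 probes gave -0.70, -0.60 and -0.53 for DSS_KO against DSS_WT, none with an adjusted p under 0.05.

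The first comparison asked how epithelial transcripts differed between KO and WT mice given DSS. Cyp2f2, Cyp2d12 and Cyp2d22 were lower in DSS_KO by the study's thresholds (adjusted p under 0.01 and a log2 fold change of at least 1 in size, below named a call), and Cyp2c67 and Cyp2d9 were lower at an adjusted p under 0.05. No P450 gene was higher by either rule. The 3 calls were 9.68% of the 31 tested P450 genes, where 0.428% of all 15646 tested genes were called lower and 0.479% higher. The 5 genes lower at an adjusted p under 0.05 were 16.1% of the 31, against 3.56% of all genes lower and 2.1% higher. The log2 fold change was negative for 22 of the 31, with a median of -0.32, against -0.019 over all genes. A gene could pass detection through 1 group alone, so these shares only describe the tested genes.

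Cyp2f2, best known as the airway enzyme that converts naphthalene to a toxic epoxide, had log2 signals of 6.21, 6.98, 7.63 and 7.78 in the DSS_WT samples and 4.31, 4.57, 4.62 and 5.11 in the DSS_KO samples. The groups did not overlap, and the transcript was detected on 5 of 5 DSS_WT arrays but on 1 of 5 DSS_KO arrays. The fitted log2 difference was -2.50 (interval -3.37 to -1.63, adjusted p 0.00314). As 3 of the 4 DSS_KO samples were not above background, it measures the distance of DSS_WT from background for those samples, and with the dimmest detected signal of each array as a floor Cyp2f2 was at least 4.54-fold lower in DSS_KO. The size depends on the background correction, so such at-least folds, here and below, hold only for the correction and offset used. The fitted difference was -1.59 with an offset of 50 and -1.05 with no background correction. Its probe lies on chromosome 7, 27918484 to 27918533, in coordinates whose genome build the file does not name.

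Cyp2c67, a neighbour of the other Cyp2c genes on chromosome 19, read 7.89, 8.53, 8.93 and 9.59 in DSS_WT and 5.49, 5.88, 5.91 and 8.36 in DSS_KO. The groups overlapped through the single DSS_KO sample at 8.36, replicate 7, which was also the highest DSS_KO sample for Cyp2f2, Cyp2d12 and Cyp2d22. The difference of -2.32 (5.01-fold lower) had an adjusted p of 0.0127, so it missed the study's threshold although its log2 difference was close to that of Cyp2f2. Without DSS_KO replicate 7 the difference was -2.98 (7.86-fold lower, adjusted p 0.000632) and was a call. A second Cyp2c67 probe was detected on 0 of 18 arrays and was not tested.

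Cyp2d12 read 6.03, 6.71, 7.68 and 7.74 in DSS_WT and 4.42, 4.53, 4.71 and 5.75 in DSS_KO. The groups did not overlap, and like Cyp2f2 it was not above background in 3 of the 4 DSS_KO samples. The fitted log2 difference was -2.19 (SE 0.43, adjusted p 0.00883), and with the same floor it was at least 3.76-fold lower in DSS_KO, although the fitted difference was -1.40 with an offset of 50 and -0.92 with no background correction. Cyp2d22, a mouse relative of the human drug-metabolising enzyme CYP2D6, read 7.44, 8.17, 8.59 and 8.70 in DSS_WT and 6.65, 6.66, 7.17 and 7.24 in DSS_KO, again without overlap and with detection on all arrays. It was 2.45-fold lower (log2 -1.29, SE 0.26, adjusted p 0.00943). A second Cyp2d22 probe was detected on 2 of 18 arrays and was not tested. Cyp2d9 was 1.78-fold lower (log2 -0.83, adjusted p 0.0437), with group means of 6.58 and 5.75.

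These calls lay near the threshold. Without DSS_WT replicate 2, DSS_KO replicate 5 or DSS_KO replicate 8 the number of called genes was 0 in place of 3, and without DSS_WT replicate 4 it was 3. The adjusted p stayed under 0.05 for Cyp2f2 and Cyp2d12 in all 24 alternatives that measured them and for Cyp2d22 in all 25, but in 24 of 25 for Cyp2c67 and in 13 of 25 for Cyp2d9, and the count at that level ran from 3 to 7 over all alternatives. It was 3 without DSS_WT replicate 2 or with only probes detected on every array, and 7 with arrays scaled to a common median, which added Cyp2d10 and Cyp2d34. Without DSS_WT replicate 4 it was 6, with Cyp2d10 added (log2 -0.91, adjusted p 0.0214). Smooth muscle, fibroblast and endothelial marker sums were also lower in DSS_KO (ranges above) while epithelial sums overlapped, and their part in these results was not tested. In samples of many cells, fewer cells of a type and less RNA per cell cannot be told apart.

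**Figure D3:**
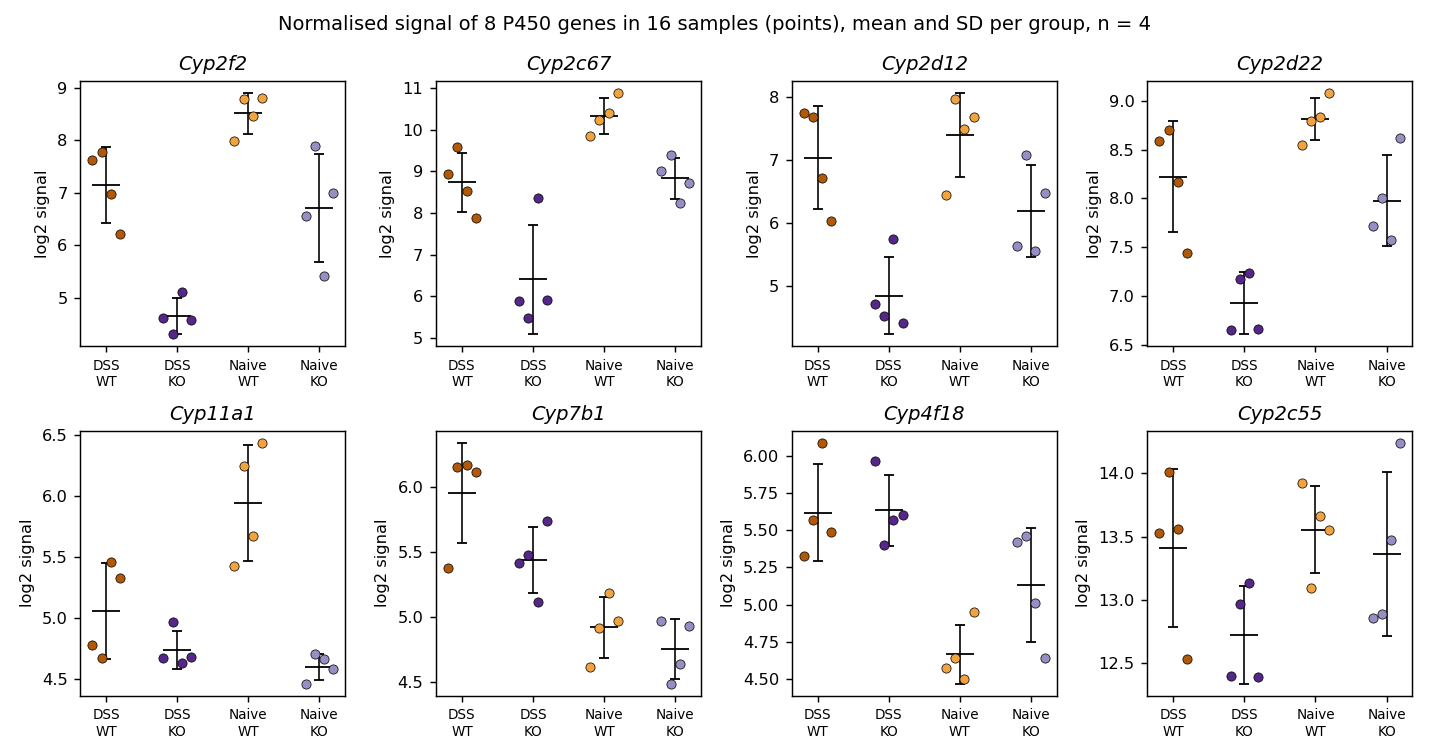
Log2 normalised signal (vertical axes) of 8 P450 genes in the 16 samples, by group (horizontal axes), with the group mean and SD (n = 4). For Cyp2f2, Cyp2d12 and Cyp2d22 every DSS_KO sample lies below every DSS_WT sample, for Cyp2c67 3 of 4 do, and Cyp7b1 is higher in every DSS_WT sample (5.38 to 6.17) than in any Naive_WT sample (4.62 to 5.19).

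Cyp2d12 and Cyp2d9 belong to the Cyp2d cluster on chromosome 15, whose genes are near copies of each other, and their probes are alike. The aligned bases of the probes of 3 of the 8 tested Cyp2d genes are shown because they bear on whether each probe reads 1 gene. Each line gives 30 bases, 5′ to 3′, and capitals mark bases that differ from the Cyp2d12 probe.
Cyp2d12: gtgatacgtgagcaaggacactaattccat
Cyp2d9: gtgGtacgAgaCcaaggacactaattccaG
Cyp2d34: AtAatGcgtgagcaaggacactaattccaA
The Cyp2d9 and Cyp2d34 stretches each have 4 differences from Cyp2d12. Over the whole overlap 41 of 48 bases were identical between the probes of Cyp2d12 and Cyp2d9, and 36 of 41 between those of Cyp2d12 and Cyp2d34, so the values of these 3 genes may share signal.

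All 8 tested Cyp2d genes had a negative log2 fold change in DSS_KO against DSS_WT, from -2.19 (Cyp2d12) to -0.32 (Cyp2d26), with a median of -0.76 and 3 lower at an adjusted p under 0.05, where 53.3% of all genes were negative and 3.56% lower at that level. Without DSS all 8 were negative as well, between Naive_KO and Naive_WT, with a median of -0.46 and none at an adjusted p under 0.05, where 51.4% of all genes were negative and 3.03% lower at that level. No sign among these 16 values turned under another scaling. Each gene is given by its brightest probe. The dimmer Cyp2d26 probes gave -0.053 and -0.085 with DSS. Without DSS they gave -0.30 and -0.26, where the brightest gave -0.62. Cyp2d34 differed by -0.83 with DSS (adjusted p 0.127) and Cyp2d10 by -0.70 (adjusted p 0.0706). Their levels in the 4 groups, in the order DSS_WT, DSS_KO, Naive_WT and Naive_KO, were 8.51, 7.68, 8.92 and 8.41 for Cyp2d34 and 8.60, 7.90, 8.83 and 8.48 for Cyp2d10. Since several of the probes may share signal, the 8 genes are not 8 separate measurements.

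The second comparison set KO against WT in mice without DSS. Cyp11a1 was called lower, and it was 1 of 31 tested genes (3.23%), against 0.3% of all genes called lower and 0.428% higher. With Cyp2f2, 2 genes (6.45%) were lower at an adjusted p under 0.05, against 3.03% of all genes lower and 2.42% higher. By its brightest probe no P450 gene was higher by either rule. A dimmer Cyp2c65 probe was higher (log2 1.03, adjusted p 0.0451). The log2 fold change was negative for 23 of 31, with a median of -0.17 against -0.0098 over all genes.

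Cyp11a1 encodes the side-chain cleavage enzyme that starts steroid synthesis from cholesterol, including glucocorticoid synthesis in the gut epithelium. Its tested probe read 5.43, 5.67, 6.25 and 6.44 in Naive_WT and 4.46, 4.58, 4.66 and 4.70 in Naive_KO. The groups did not overlap, and the probe was detected on 4 of 4 Naive_WT and 0 of 4 Naive_KO arrays. With the dimmest detected signal as a floor, Cyp11a1 was at least 1.96-fold higher in Naive_WT under the background correction and offset used here. The log2 difference of the fitted means was -1.35 (adjusted p 0.00185). That difference was -0.73 with an offset of 50 and -0.44 with no background correction, and under neither setting was it a call. These values rest on 1 probe, which starts at base 5 of the transcript listed in the file and carries no chromosome position there. The other Cyp11a1 probe, which starts at base 1586, and both probes under the older symbol Cyp11a were detected on 0 of 18 arrays. The first 30 bases of the tested probe are shown, 5′ to 3′, so that its target can be looked up.
Cyp11a1: ccccccttcaaggctgatgcatttttactt

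Cyp2f2 read 7.98, 8.47, 8.79 and 8.81 in Naive_WT and 5.42, 6.55, 6.99 and 7.89 in Naive_KO, and was detected on all 8 arrays. The highest Naive_KO sample, replicate 14, came close to the lowest Naive_WT sample without reaching it. The difference was -1.80 (3.48-fold lower, adjusted p 0.0203). Cyp2c67 read 9.84, 10.23, 10.41 and 10.88 in Naive_WT and 8.23, 8.71, 9.01 and 9.39 in Naive_KO, also without overlap, but its 2.83-fold lower mean had an adjusted p of 0.0854. It passed 0.05 with only the groups compared, with no background correction and without DSS_KO replicate 7 (adjusted p 0.015), which enters only through the shared estimate of the spread. Cyp2d22 differed by -0.83 (8.81 ± 0.22 against 7.98 ± 0.47, adjusted p 0.0735) and Cyp2d12 by -1.21 (7.40 ± 0.67 against 6.19 ± 0.73, adjusted p 0.11). Cyp4b1, a fatty acid and xenobiotic hydroxylase, differed by -0.88 with a single Naive_KO sample, replicate 16, at 7.32 and the others at 5.28 to 5.55 (adjusted p 0.157). Without that sample it was called lower (log2 -1.36, adjusted p 0.00322), and Cyp2d22 was lower at an adjusted p of 0.022. Cyp2d22 also passed 0.05 here without DSS_WT replicate 4 (adjusted p 0.0408), which enters only through the shared estimate of the spread. Leaving out 1 sample at a time gave 1 to 2 called genes and 1 to 4 at an adjusted p under 0.05, the lowest without Naive_WT replicate 10, Naive_KO replicate 13 or Naive_KO replicate 15 and the highest without Naive_KO replicate 16. Endothelial marker sums were also lower in Naive_KO (873 to 1069 against 1159 to 1711), and their part in these results was not tested.

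**Figure D4:**
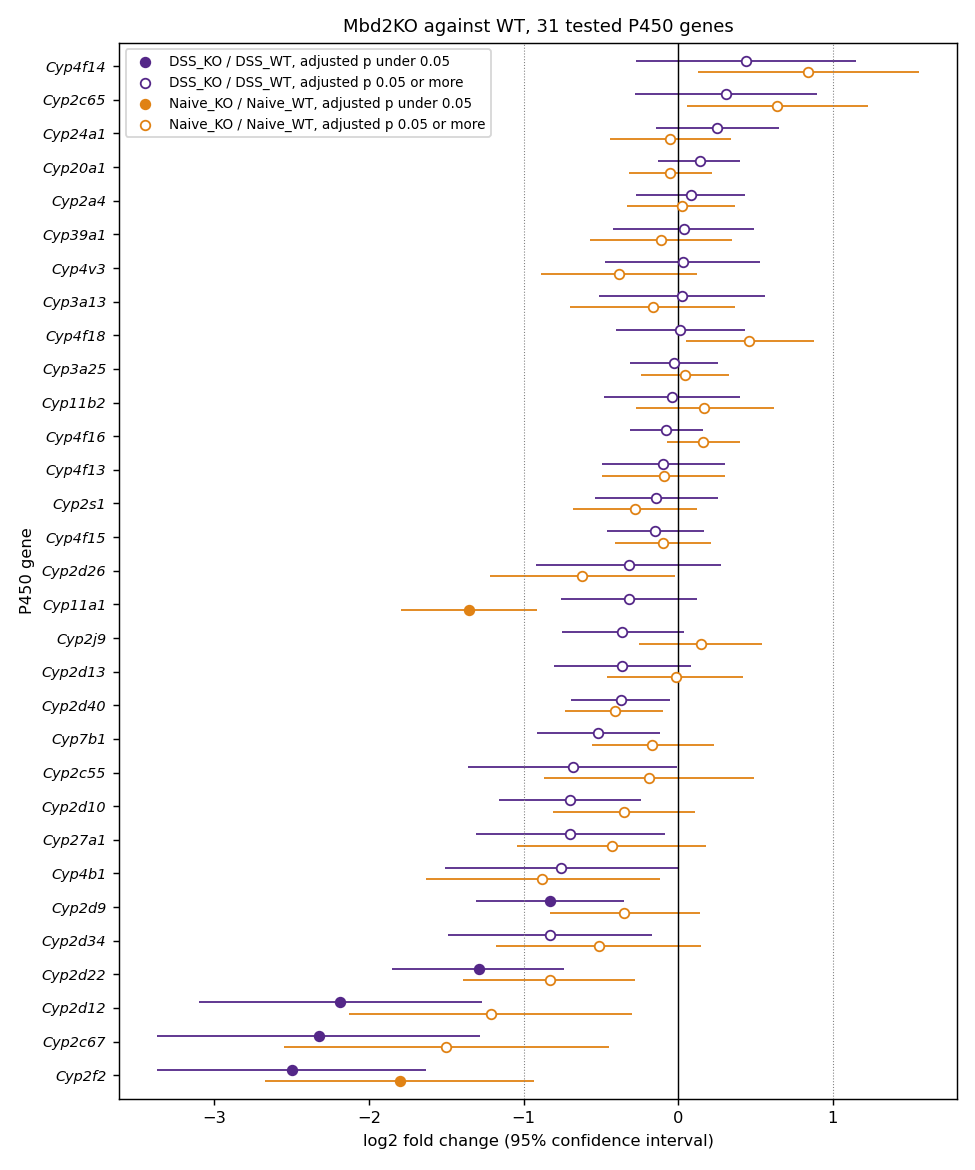
Log2 fold change of KO against WT (horizontal axis, bars are 95% confidence intervals without adjustment for multiple tests) for the 31 tested P450 genes, with DSS (purple) and without (orange). Filled points have a limma adjusted p under 0.05. Filled points lie at -0.83 and below with DSS (5 genes) and at -1.80 and -1.35 without (Cyp2f2 and Cyp11a1).

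The genotype differences with and without DSS were then set against each other. The difference between them (the interaction) had an adjusted p under 0.05 for 0 of 31 P450 genes, and 0% of all genes passed that level or were called by limma. At an unadjusted p under 0.05, 1 of the 31 (3.23%) and 10.6% of all genes passed. That gene was Cyp11a1, whose KO minus WT difference was -0.32 with DSS and -1.35 without, an interaction of 1.02 (SE 0.29, adjusted p 0.248). It was detected on 0 of 4 Naive_KO and 1 of 5 DSS_KO arrays, so both differences and the interaction are set against background in KO. For Cyp2f2 the interaction was -0.70 with an interval of -1.93 to 0.53, and for Cyp2d12 -0.97 with an interval of -2.27 to 0.32, both spanning 0 and both limited by the DSS_KO samples at background.

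The third comparison asked what DSS changed within WT mice. Cyp7b1 was called higher, 1 of 31 (3.23%) against 1.53% of all genes, and no P450 gene was called lower, against 0.396% of all genes. At an adjusted p under 0.05, 3 were higher (9.68%, against 6.31% of all genes): Cyp7b1, Cyp4f18 and Cyp2j9. At the same level 4 were lower (12.9%, against 4.54%): Cyp11a1, Cyp2c67, Cyp2d40 and Cyp2f2. The median log2 fold change was -0.23, against 0.0078 over all genes. This balance depends on scaling. With arrays scaled to a common median, the median of all genes moved to 0.27 for DSS_WT against Naive_WT and to 0.25 for DSS_KO against Naive_KO, and the P450 medians to 0.037 and -0.052, still below those of all genes. Under that scaling 4 P450 genes were higher with DSS in WT at an adjusted p under 0.05 (Cyp2c65, Cyp2j9, Cyp4f18 and Cyp7b1) and 1 was lower (Cyp11a1), in place of 3 and 4, and 2 were called (Cyp4f18 and Cyp7b1). In KO it gave 2 higher (Cyp4f18 and Cyp7b1) and 4 lower (Cyp2c67, Cyp2d12, Cyp2d13 and Cyp2f2), in place of 1 and 5.

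Cyp7b1 hydroxylates oxysterols, which makes the ligand by which the receptor EBI2 positions immune cells, and feeds the acidic route of bile acid synthesis. It read 5.38, 6.12, 6.16 and 6.17 in DSS_WT and 4.62, 4.92, 4.97 and 5.19 in Naive_WT. The groups did not overlap, and it was detected on 3 of 4 Naive_WT and 5 of 5 DSS_WT arrays. The increase was 2.04-fold (log2 1.03, interval 0.64 to 1.43, adjusted p 0.00257). Without DSS_WT replicate 4 it was 0.98 (adjusted p 0.0118) and no longer a call, and it was 0.58 with an offset of 50 and 0.34 with no background correction. In KO mice it read 5.12, 5.42, 5.48 and 5.74 with DSS and 4.49, 4.64, 4.93 and 4.97 without, again with no overlap (log2 0.68, adjusted p 0.0292). Only 1 of 4 Naive_KO arrays detected it, and with the floor it was at least 1.37-fold higher with DSS in KO. The fitted difference in KO was 0.34 with an offset of 50 and 0.21 with no background correction. The interaction of -0.35 had an interval of -0.91 to 0.21.

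Cyp4f18, which hydroxylates leukotriene B4 and is best known from neutrophils and other myeloid cells, read 5.33, 5.49, 5.57 and 6.09 in DSS_WT against 4.50, 4.57, 4.64 and 4.95 in Naive_WT. The groups did not overlap, and detection was on 5 of 5 against 1 of 4 arrays. The fitted log2 difference was 0.95 (adjusted p 0.0059), just under the study's fold threshold, and with the floor Cyp4f18 was at least 1.63-fold higher with DSS. That difference was 0.49 with an offset of 50 and 0.29 with no background correction. In KO mice the difference was 0.50 (adjusted p 0.121), with means of 5.63 and 5.13. Another Cyp4f18 probe was detected on 1 of 18 arrays and was not tested. Cyp2j9, an arachidonic acid hydroxylase, rose by 0.71 in WT (6.42 ± 0.051 against 5.72 ± 0.32, adjusted p 0.0234, or 0.0633 without DSS_WT replicate 4) and differed by 0.21 in KO (adjusted p 0.531). Myeloid marker sums were 2190 to 5130 in DSS_WT against 1317 to 1783 in Naive_WT, and fibroblast sums 8334 to 10979 against 4060 to 7683. The part of either in these increases was not tested.

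Among the genes lower with DSS in WT, Cyp2f2 fell by 1.36 on the log2 scale (2.57-fold lower, adjusted p 0.0452) and Cyp2c67 by 1.60 (3.04-fold lower, adjusted p 0.0486). For both genes every DSS_WT sample lay below every Naive_WT sample. The adjusted p stayed under 0.05 in 12 of 24 alternatives for Cyp2f2 and in 11 of 25 for Cyp2c67. Without DSS_WT replicate 4 neither passed (log2 -1.05 and -1.32, adjusted p 0.147 and 0.149). Cyp11a1 was not above background in 2 of 4 DSS_WT samples and, with the floor, was at least 1.73-fold lower with DSS (adjusted p 0.0134), with means of 5.95 ± 0.47 and 5.06 ± 0.39. Its fitted log2 difference was -0.89, but -0.51 with an offset of 50 and -0.30 with no background correction. Cyp2d40 fell by 0.58 (adjusted p 0.021), from 6.06 ± 0.12 to 5.48 ± 0.19, but without DSS_WT replicate 4 its adjusted p was 0.0765. A dimmer probe of Cyp20a1, an orphan P450 with no settled substrate, was not above background in 3 of 4 DSS_WT samples and, with the floor, was at least 1.57-fold lower there (adjusted p 0.0082), while its brighter probe differed by -0.37 (adjusted p 0.0699). Likewise a dimmer Cyp4f16 probe fell by 0.73 (adjusted p 0.0464) where the brightest differed by -0.060. Without DSS_WT replicate 2, 3 or 4 the number of called genes was 0 in place of 1, and the count at an adjusted p under 0.05 ran from 3 (without DSS_WT replicate 4, Naive_WT replicate 10 or Naive_WT replicate 12) to 8, with 7 from all samples.

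The fourth comparison, DSS against naive in KO mice, called Cyp2c67 and Cyp2f2 lower, 6.45% of the 31 against 0.665% of all genes, and no P450 gene higher, against 1.26%. At an adjusted p under 0.05, 5 were lower (16.1%, against 4.63% of all genes), namely Cyp2c67, Cyp2d13, Cyp2d22, Cyp2d40 and Cyp2f2, and Cyp7b1 was higher (3.23%, against 5.23%). Cyp2c67 was 5.37-fold lower (log2 -2.43, interval -3.47 to -1.38, adjusted p 0.00659), from 8.84 ± 0.49 to 6.41 ± 1.31. Its groups overlapped, since DSS_KO replicate 7 at 8.36 was above the lowest Naive_KO sample at 8.23, and without that sample the fold was 8.44 (log2 -3.08, adjusted p 0.000101). Cyp2f2 had a fitted log2 difference of -2.06 (adjusted p 0.00586) and, with the floor for DSS_KO, was at least 3.34-fold lower, and its highest DSS_KO sample (5.11) lay below its lowest Naive_KO sample (5.42). That fitted difference was -1.27 with an offset of 50 and -0.84 with no background correction. Cyp2d22 fell by 1.05 (adjusted p 0.0189) and Cyp2d40 by 0.54 (adjusted p 0.0312). Cyp2d13, listed in the file as a non-coding RNA, was detected on 3 of 4 Naive_KO and 0 of 5 DSS_KO arrays and was at least 1.21-fold higher in Naive_KO (adjusted p 0.0372). Leaving out DSS_KO replicate 5, 6 or 8, or Naive_KO replicate 14 or 16, gave 0 called genes in place of 2, and leaving out DSS_KO replicate 5 or 8 gave 2 genes at an adjusted p under 0.05 in place of 6.

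Of the 8 tested Cyp2d genes 7 had a negative log2 fold change with DSS in WT and 8 in KO, with medians of -0.38 and -0.66, where 48.9% and 51.6% of all genes were negative. At an adjusted p under 0.05, 1 and 3 were lower, where 4.54% and 4.63% of all genes were. Under scaling to a common median Cyp2d10 and Cyp2d26 turned positive in WT and Cyp2d26 in KO. The comparisons within a genotype and those within a treatment share samples, so that a high or low group moves 2 of them at once. For Cyp2f2 the 4 differences were -2.50 and -1.80 for genotype and -1.36 and -2.06 for DSS, and the group means ran from 8.51 in Naive_WT through 7.15 in DSS_WT and 6.71 in Naive_KO to 4.65 in DSS_KO. Cyp2c67 had the means 10.34 in Naive_WT, 8.74 in DSS_WT, 8.84 in Naive_KO and 6.41 in DSS_KO. The order of the groups DSS_WT and Naive_KO was thus not the same for both genes, and the SDs of 0.72 and 1.02 (Cyp2f2) and 0.71 and 0.49 (Cyp2c67) exceed the gap between these 2 means.

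**Figure D5:**
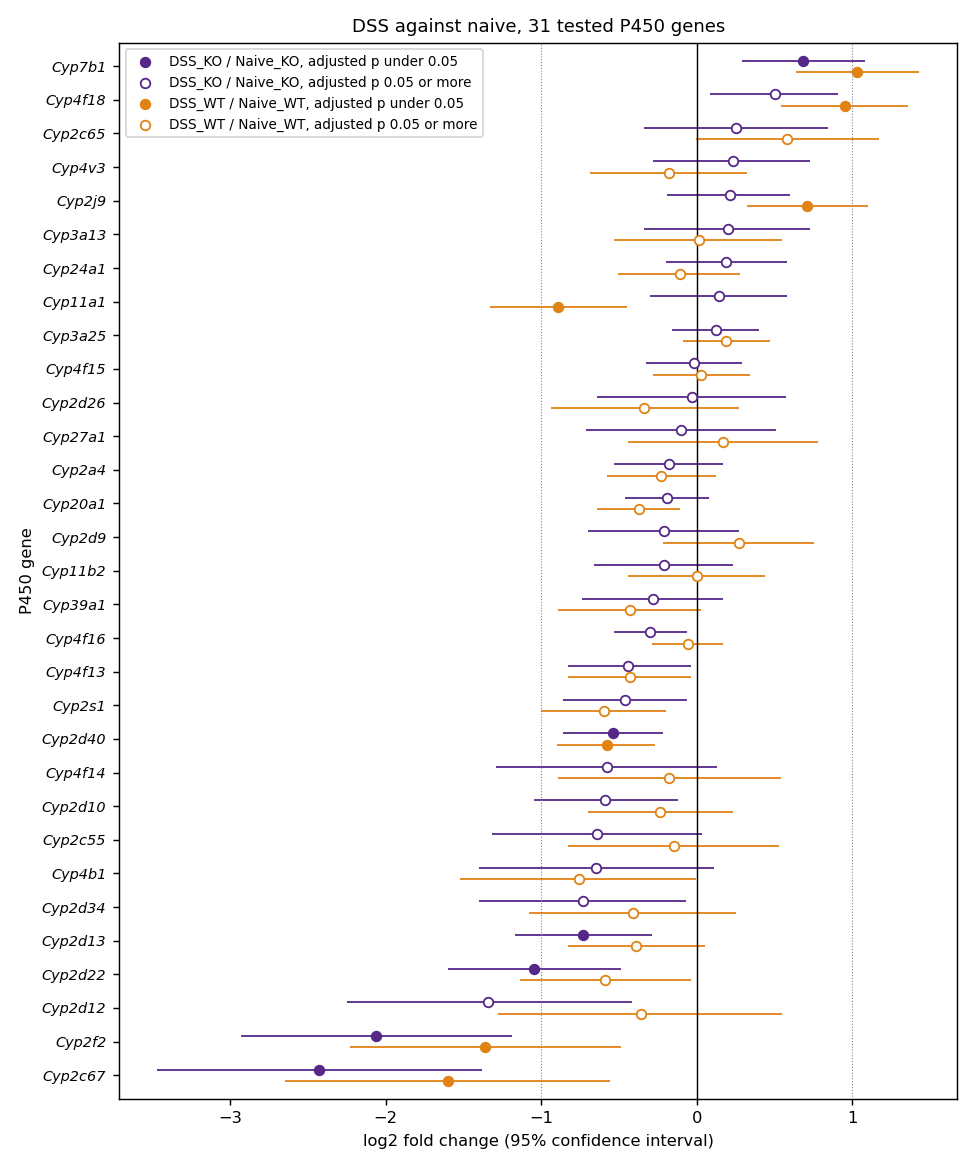
Log2 fold change of DSS against naive (horizontal axis, bars are 95% confidence intervals without adjustment for multiple tests) for the 31 tested P450 genes, in KO (purple) and WT mice (orange). Filled points have a limma adjusted p under 0.05. Cyp7b1 is filled on the right in both genotypes (0.68 and 1.03), and Cyp2f2, Cyp2c67 and Cyp2d40 are filled on the left in both.

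Other genes of the P450 pathways were taken from lists, chosen with results of these data known. Por, the oxidoreductase that feeds electrons to microsomal P450 enzymes, read 9.73, 9.51, 9.58 and 9.49 in DSS_WT, DSS_KO, Naive_WT and Naive_KO, with no adjusted p under 0.05. Of 7 tested genes of electron supply none was called in any of the 4 contrasts, and 2 passed an adjusted p of 0.05 in 1 contrast each, where 3.56% (DSS_KO against DSS_WT) and 4.63% (DSS in KO) of all genes were lower: Pgrmc2, a haem-binding partner of P450 enzymes, was lower in DSS_KO than in DSS_WT (log2 -0.41, adjusted p 0.043), and Cyb5b, a cytochrome b5, lower with DSS in KO (log2 -0.39, adjusted p 0.0454). Among 12 tested genes of haem synthesis and breakdown, only Hmox1, the inducible haem oxygenase, passed an adjusted p of 0.05, higher with DSS in both genotypes (0.84 and 0.85), where 6.31% and 5.23% of all genes were higher. Cyp51, the sterol demethylase of cholesterol synthesis, is outside the symbol rule. It read 10.01, 10.22, 10.29 and 10.44 and had no adjusted p under 0.05, and none of the 23 tested cholesterol synthesis genes was called. At an adjusted p under 0.05, 2 of these were lower with DSS in KO (Tm7sf2 and Srebf1), where 4.63% of all genes were. Under scaling to a common median none of these falls, nor those of Pgrmc2 and Cyb5b, passed 0.05. More genes were then higher with DSS at that level. These were 3 haem genes in each genotype (Alad, Hmox1 and Blvra), and 5 cholesterol genes in WT and 2 in KO. Of the electron supply genes, Cyb5r3 was higher in WT and Cyb5a in KO.

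Regulators and target genes of P450 control were counted next. Of 18 tested regulators, 5 had an adjusted p under 0.05 in some contrast. In the order of the 4 contrasts above, 2, 2, 2 and 1 were higher, where 2.1%, 2.42%, 6.31% and 5.23% of all genes were. In the same order 0, 0, 1 and 0 were lower, where 3.56%, 3.03%, 4.54% and 4.63% of all genes were. Nfe2l2, the factor that induces antioxidant and conjugating enzymes, was called lower with DSS in WT (log2 -1.10, adjusted p 0.00908), where 0.396% of all genes were. It differed by -0.042 in KO, and the difference between both effects was 1.06 (adjusted p 0.27). Nr1h4, the bile acid receptor FXR, was higher at an adjusted p under 0.05 in all 4 contrasts, by 0.49 (DSS_KO against DSS_WT), 0.59 (Naive_KO against Naive_WT), 0.68 (DSS in WT) and 0.58 (DSS in KO). The others passed in 1 contrast each: Cebpa, a factor of liver and myeloid differentiation, was 1.09 higher in DSS_KO than in DSS_WT (adjusted p 0.0371), Nr1h2, an oxysterol receptor, 0.44 higher in Naive_KO than in Naive_WT (adjusted p 0.0443), and Cebpb, a factor of the acute response, 0.73 higher with DSS in WT (adjusted p 0.00238). Among 8 tested target genes of the aryl hydrocarbon receptor, Scin, an actin-severing protein, was called lower with DSS in KO (log2 -1.84, adjusted p 0.00647), where 0.665% of all genes were, and no other passed an adjusted p of 0.05. Under scaling to a common median Scin was still called, but Nfe2l2 was no longer under 0.05 and no regulator passed 0.05 between genotypes, while Nr1h4 stayed higher with DSS in both. With DSS, 6 regulators in WT and 3 in KO were then higher at that level, in place of 2 and 1, and Nr1h4 and Cebpb were called in WT. Scin was then also lower in DSS_KO than in DSS_WT, and the target gene Gsta1 higher with DSS in KO, at an adjusted p under 0.05.

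Conjugation and hydrolysis enzymes, which act on the products of P450 enzymes, were counted in all 4 contrasts. Of 52 tested, 36 had a negative log2 fold change in DSS_KO against DSS_WT and 38 in Naive_KO against Naive_WT, with medians of -0.22 and -0.23, where 53.3% and 51.4% of all tested genes were negative. Of the 52, 8 and 4 were lower at an adjusted p under 0.05 and 1 and 0 were higher, where 3.56% and 3.03% of all genes were lower and 2.1% and 2.42% higher. With DSS in WT and KO, 34 and 38 were negative, with medians of -0.15 and -0.16, and 3 and 7 were lower and 0 higher at an adjusted p under 0.05, where 48.9% and 51.6% of all genes were negative and 4.54% and 4.63% lower. The DSS counts turned with scaling, since a common median gave 15 and 15 negative, with medians of 0.19 and 0.16, while between genotypes it gave 45 and 44 negative. At an adjusted p under 0.05 it gave, with DSS in WT and KO, 4 and 5 higher and 0 and 2 lower. Between genotypes it gave 12 lower and 1 higher with DSS, and 4 lower and 0 higher without. It called Ces1g, Ces2g and Fmo1 in DSS_KO against DSS_WT, and Gsta3 with DSS in WT. Ces2g, an intestinal carboxylesterase, was the one called without that scaling, with means of 8.79 in DSS_WT and 7.00 in DSS_KO (log2 -1.79, adjusted p 0.00359). It differed by -1.30 without DSS (adjusted p 0.0226).

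Partners in the lipid pathways passed the test with DSS in single genes, in both directions, but this balance depends on scaling. With DSS in WT and KO, 1.53% and 1.26% of all genes were called higher. Of 11 tested transporters, Slc51a, a subunit of the basolateral bile acid exporter, was called higher with DSS in KO (1.33, adjusted p 0.00281) and was 0.82 higher in WT (adjusted p 0.0369). Of 17 tested retinoid genes, Aldh1a3, which makes retinoic acid, was called higher with DSS in WT (1.33, adjusted p 0.00545) and differed by 0.80 in KO (adjusted p 0.07). Of 17 tested eicosanoid enzymes, Alox5ap, the partner of the enzyme that starts leukotriene synthesis, was called higher in KO (1.20, adjusted p 0.00998), and it was 1.04 higher in WT (adjusted p 0.0208). Hpgd, which inactivates prostaglandins, was lower with DSS in WT (log2 -0.64, adjusted p 0.021) and in KO (log2 -0.55, adjusted p 0.0427). Of 15 tested steroid partners, Hsd11b1, which activates glucocorticoids, was called higher with DSS in WT (1.27, adjusted p 0.00514) and in KO (1.32, adjusted p 0.00466). Hsd3b2, a steroid dehydrogenase, and Hsd11b2, which inactivates glucocorticoids, were lower with DSS in WT (log2 -0.63 and -0.89, adjusted p 0.0126 and 0.0308). Under scaling to a common median none of these falls passed 0.05, and more genes were higher at that level. In the order transporters, retinoid, eicosanoid and steroid genes, 6, 5, 6 and 2 were higher in WT, in place of 2, 2, 2 and 1. In KO 2, 4, 4 and 7 were higher, in place of 1, 1, 2 and 1. That scaling also moved the median of all genes, to 0.27 in WT and 0.25 in KO. Fibroblast and myeloid marker sums were higher in every DSS sample than in any naive sample of the same genotype, and their part in these differences was not tested.

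Promoter sequence was examined because Mbd2 binds methylated CpG. RefSeq promoters (GRCm38.p6, windows of 300 bases that end 50 bases past the start of transcription) were matched by symbol for 23 of the 31 tested genes (74.2%), so no comparison over the set was made. Methylation was not measured in this series. The 300 bases of Cyp2f2 and Cyp2c67, the genes with the most negative fitted log2 differences between DSS_KO and DSS_WT (of which that of Cyp2f2, like that of Cyp2d12, is limited by background), are shown 5′ to 3′ on the strand of the gene, with each CG in capitals.
Cyp2f2, chr7:27119705-27120004, plus strand: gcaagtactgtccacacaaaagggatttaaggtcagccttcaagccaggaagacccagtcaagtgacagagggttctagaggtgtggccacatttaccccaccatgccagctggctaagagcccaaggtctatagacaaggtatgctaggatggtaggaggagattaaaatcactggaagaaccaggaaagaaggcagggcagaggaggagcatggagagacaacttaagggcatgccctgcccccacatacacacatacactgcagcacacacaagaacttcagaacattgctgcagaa
Cyp2c67, chr19:39648993-39649292, minus strand: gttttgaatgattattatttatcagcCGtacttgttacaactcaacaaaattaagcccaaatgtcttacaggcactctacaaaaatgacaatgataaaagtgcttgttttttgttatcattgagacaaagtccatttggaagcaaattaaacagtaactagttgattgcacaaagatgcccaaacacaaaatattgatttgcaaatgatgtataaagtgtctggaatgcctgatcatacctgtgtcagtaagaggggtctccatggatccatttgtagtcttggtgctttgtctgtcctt
The Cyp2f2 window held 0 CG, as did 5.43% of 32851 RefSeq promoters, and the Cyp2c67 window 1 CG, with 14.1% of promoters holding as many or fewer. The median over all promoters was 7. Cyp2c55, whose signal did not pass the threshold in any contrast, held 0 in its window as well, and Cyp2s1 held 17. The letters CG read the same on both strands, and their absence from a window says nothing about sites outside it.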

How the data were processed

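RNA from sorted colon epithelial cells of 4 groups was read on 18 arrays. The deposited table holds a linear bead intensity per probe and array, exported per the file headers with normalization set to none and no background subtraction, and a deposited detection p-value from 936 negative controls. Bead numbers and bead standard errors served only to describe the arrays, and 36 value columns were not used. The submitters' processing notes name lumi and limma. The genome build of the probe positions is not given in the sources used here.

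Intensities were corrected with the negative controls and quantile-normalized by neqc (limma 3.58.1, R 4.3.3, offset 16), which returns log2 signals. The detection rule (at least 4 arrays under 0.05) left 21938 probes to test. Arrays 4R and 5R were averaged with 4 and 5, because the SD of their log2 difference (0.194 and 0.236) was below that of every other pair in their group, which gave 16 samples. A single limma model over these samples (12 residual and 4.71 prior degrees of freedom) gave two-sided p-values, adjusted by the Benjamini-Hochberg method over all tested probes of a contrast. Counts use the brightest tested probe of each symbol, and the thresholds of a call are those of the study's methods. The code was tested on simulated data. The methods describe biological replicates from separate experiments, but no source used here ties a sample to an experiment, so an experiment effect was not tested and p-values measure the spread between these samples.

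Named genes were those called or with an adjusted p under 0.05 in any contrast, the 3 largest rises and falls of each contrast, the 8 brightest genes and a list of well-known P450 genes. Cyp4b1, Cyp2d10, Cyp2d26, Cyp2d34, Cyp39a1, Cyp11b2 and Cyp51, and list genes named without a call, were chosen after their values were seen. Not every gene of the pathway lists that was called or passed an adjusted p of 0.05 is reported here. Through Entrez numbers 111 of 124 probes matched a current symbol (Cyp11a is now Cyp11a1, and Cyp2c44 is Cyp2c23). Sequences come from the deposited probe table and RefSeq, and summaries from Python 3.11.15. The members and lists were chosen with earlier results of these data known. Alternatives changed background correction, scaling, offset, filter, repeat arrays, samples in the fit, array weights, probe choice and single samples.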

Additional observations from a re-analysis of the deposited data

Results flagged for a closer look

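In 112 sets of 4 samples (28 genes in 4 groups), 7 held a sample set far apart from the other 3 by Dixon's criterion, which chance gives in about 1 of 20 sets. Cyp2c67 read 8.36 in DSS_KO replicate 7 and 5.49 to 5.91 in the other DSS_KO samples. Cyp7b1 read 5.38 in DSS_WT replicate 1 and 6.12 to 6.17 in the others. Cyp11a1 read 4.97 in DSS_KO replicate 6 and 4.63 to 4.68 in the others. Cyp2d40 read 5.89 in Naive_WT replicate 9 and 6.10 to 6.14 in the others. Cyp4b1 read 7.32 in Naive_KO replicate 16 and 5.28 to 5.55 in the others. Cyp2d26 read 8.10 in DSS_WT replicate 4 and 8.67 to 8.72 in the others. Cyp39a1 read 5.89 in Naive_WT replicate 11 and 5.70 to 5.72 in the others.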

How the results depend on the processing

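For the 20 gene differences with an adjusted p under 0.05, 487 values were recomputed. None turned sign, 405 kept an adjusted p under 0.05 and 82 did not, and for the stricter call 63 lost it, 14 gained it and 410 stayed on their side. The number of called P450 genes depended on the settings. For DSS_KO against DSS_WT it was 3, but 0 with no background correction or no filter and 1 with an offset of 50, with probes detected on every array or with only the groups compared. For Naive_KO against Naive_WT it was 1, but 0 with no background correction, offset 50, probes detected on every array or only the groups compared. For DSS in WT it was 1, but 0 under those same 4 settings and 2 with median scaling or array weights. For DSS in KO it was 2, but 0 with no background correction, no filter or only the groups compared, and 1 with offset 50 or probes detected on every array. At an adjusted p under 0.05, probes detected on every array gave 3, 0, 3 and 2 genes in the 4 contrasts in place of 5, 2, 7 and 6, array weights gave 10 for DSS in KO, and median scaling gave 7 for DSS_KO against DSS_WT. Fewer P450 genes can be counted where every array must detect them (18 of 31). Leaving out 1 sample gave 0 to 3, 1 to 2, 0 to 2 and 0 to 3 called genes, 3 to 6, 1 to 4, 3 to 8 and 2 to 7 at an adjusted p under 0.05, and 0 to 0 for the interaction. The cause of the other shifts was not tested. Scaling to a common median gave 26 and 24 negative P450 genes between genotypes in place of 22 and 23, and 15 and 18 with DSS in place of 22 and 22. No paired analysis was possible because the groups share no replicate numbers, and a fit with the slide as a block was not run because the file names no slides. Signals near background, as for Cyp2f2 and Cyp2d12 in DSS_KO, limit how large a fall can be measured.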
